A study of Mus musculus with 6 samples.

Results

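The Obox genes are oocyte specific homeobox genes that lie in a cluster on mouse chromosome 7. The rows of the deposited table whose symbol is Obox followed by a digit were taken, which gave 3 of 10896 genes: Obox1, Obox2 and Obox5. Of the 5 names listed for the family, Obox3 and Obox6 are not analysed here. Another row belongs to the family under an older name: the gene identifier of Gm4745 is that of Obox7 in the RefSeq annotation, and its values are given beside those of the 3 members. RNA was measured by sequencing in oocytes of (C57BL x CBA) F1 mice at the germinal vesicle stage, the stage of arrest before meiosis resumes. In the in vitro group, 3 samples of 50 oocytes had grown inside follicles that were isolated with collagenase from the pooled ovaries of females 10 to 12 days old and cultured on membrane inserts in MEM-alpha medium with serum, an insulin, transferrin and selenium supplement, and FSH, the hormone that drives follicle growth. In the in vivo group, 3 samples of 50 oocytes were released by needle from ovaries of females 7 to 11 weeks old into M2 medium with dbcAMP, an analogue of the messenger that holds oocytes in arrest. Culture, donor age and collection medium differ together between the groups, so their parts in any difference cannot be told apart. Whether each sample stands for its own culture or animal is not in the labels.

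A homeobox is a stretch of DNA that codes for a homeodomain, the part of a transcription factor that grips DNA. Mouse Obox genes are transcribed during oocyte growth or in the early embryo, and their RNA is part of the maternal store that the egg hands to the embryo. In mouse embryos, OBOX proteins are known to help RNA polymerase II reach its targets when the genome of the zygote is first transcribed. Obox genes arose by repeated duplication, and RefSeq lists 6 protein-coding members and 47 pseudogenes, 45 of these on chromosome 7.

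How alike the copies are bears on every value below, because a read from a shared stretch cannot be given to 1 gene. The homeobox DNA of the 3 members and of Obox7 is shown for that reason. The stretches were read 5′ to 3′ from the GENCODE transcripts matched to the RefSeq ones (release M21, build GRCm38, plus strand of chromosome 7). They cover the 60 codons of the Obox1 homeobox and what aligns with them, and in each gene they run from exon 3 into exon 4. Capitals mark bases that differ from Obox1.
Obox1: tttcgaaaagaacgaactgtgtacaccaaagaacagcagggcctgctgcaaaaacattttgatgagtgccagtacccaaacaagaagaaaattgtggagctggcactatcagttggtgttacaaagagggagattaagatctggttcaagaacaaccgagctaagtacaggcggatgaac
Obox2: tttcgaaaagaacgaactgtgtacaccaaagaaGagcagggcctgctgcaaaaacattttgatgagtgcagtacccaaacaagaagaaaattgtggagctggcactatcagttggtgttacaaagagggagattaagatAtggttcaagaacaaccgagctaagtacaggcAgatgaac
Obox5: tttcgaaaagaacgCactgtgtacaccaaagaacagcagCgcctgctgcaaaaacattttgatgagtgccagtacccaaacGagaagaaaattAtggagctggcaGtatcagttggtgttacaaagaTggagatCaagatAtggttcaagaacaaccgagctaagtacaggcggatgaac
Obox7: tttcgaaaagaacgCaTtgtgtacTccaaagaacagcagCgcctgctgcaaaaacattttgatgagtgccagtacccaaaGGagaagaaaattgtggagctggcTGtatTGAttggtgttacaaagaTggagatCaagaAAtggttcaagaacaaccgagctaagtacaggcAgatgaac
Obox2 differed from Obox1 at 3 bases and lacked 1 base, aligned to position 69 of the 180, which leaves 179. Over this stretch 97.8% of the aligned columns were identical between Obox2 and Obox1, 95.6% between Obox5 and Obox1 and 91.1% between Obox7 and Obox1. These shares are of DNA. The lack of 1 base shifts the reading frame of Obox2 relative to Obox1 from there on. The share for Obox2 is therefore no measure of likeness between the proteins, which were not compared. The annotated coding length of Obox2, 453 bases, was below the 612 bases of Obox1, the 654 of Obox7 and the 873 of Obox5.

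Likeness over whole transcripts was measured by cutting each transcript into all of its overlapping words of 50 bases and counting those that another transcript also holds. Of the words of Obox1, 58.0% were also in Obox2, and of those of Obox2, 60.1% were also in Obox1. With words of 90 bases the shares were still 43.4% of Obox1 and 45% of Obox2. Obox5 stood apart from this pair. It shared 1.80% of its 50-base words with Obox1, 0.730% with Obox2 and 6.73% with Obox7, and 8.81% with any other protein-coding Obox gene. Pseudogene transcripts of the family in GENCODE held 1.57% of the words of Obox1, 2.55% of those of Obox2, 5.95% of those of Obox5 and 7.22% of those of Obox7. These transcripts were taken by their Obox pseudogene names. Any RefSeq pseudogene without such a transcript, or with one under another kind of name, was not counted. The read length and the rule for reads with several matches are not given in the sources used here. The split of reads between Obox1 and Obox2 is therefore uncertain, while most 50-base words of Obox5 had no exact copy in another protein-coding Obox transcript. A word with 1 differing base counted as not shared, so reads placed with mismatches could still be shared. The transcripts cut into words also differ from the deposited lengths, with 1831 bases against 1312 for Obox5.

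**Figure D1:**
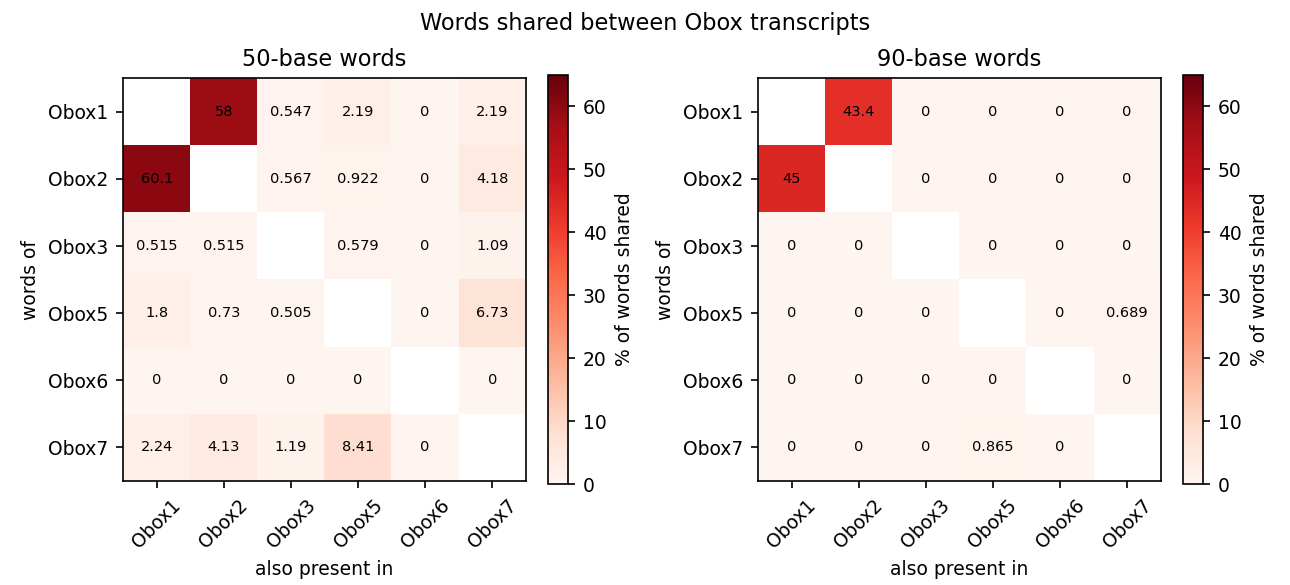
Percentage of the overlapping words of each protein-coding Obox transcript (rows) that are also present in another (columns), for words of 50 bases (left) and 90 bases (right). Obox1 and Obox2 share 58.0% and 60.1% of their 50-base words, and no other pair shares more than 8.41%.

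The start regions of the genes were alike too. The RefSeq windows of build GRCm38.p6, from 250 bases before the annotated start to 50 after it, are shown to let the copies be compared. They lie on the plus strand, at chr7:15547007-15547306 for Obox1, chr7:15388601-15388900 for Obox2 and chr7:15750120-15750419 for Obox5. Capitals in Obox2 and Obox5 mark bases that are not matched in the best local alignment with Obox1.
Obox1: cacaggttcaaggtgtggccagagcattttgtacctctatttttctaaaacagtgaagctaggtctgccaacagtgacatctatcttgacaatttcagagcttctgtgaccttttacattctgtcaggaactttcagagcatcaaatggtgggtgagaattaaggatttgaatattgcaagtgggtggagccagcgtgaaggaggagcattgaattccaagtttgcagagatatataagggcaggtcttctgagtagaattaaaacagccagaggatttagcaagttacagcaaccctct
Obox2: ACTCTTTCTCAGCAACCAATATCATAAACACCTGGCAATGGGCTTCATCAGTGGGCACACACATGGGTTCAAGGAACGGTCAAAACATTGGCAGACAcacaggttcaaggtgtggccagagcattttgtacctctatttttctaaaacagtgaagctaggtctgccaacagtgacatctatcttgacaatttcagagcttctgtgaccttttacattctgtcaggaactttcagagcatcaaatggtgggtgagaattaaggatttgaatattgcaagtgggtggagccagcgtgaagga
Obox5: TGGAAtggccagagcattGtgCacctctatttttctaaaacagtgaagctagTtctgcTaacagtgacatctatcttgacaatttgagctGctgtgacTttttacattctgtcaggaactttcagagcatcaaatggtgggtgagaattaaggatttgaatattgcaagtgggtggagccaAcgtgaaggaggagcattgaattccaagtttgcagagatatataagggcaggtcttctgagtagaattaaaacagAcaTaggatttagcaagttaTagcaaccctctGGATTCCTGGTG
Over the 203 bases that the windows of Obox1 and Obox2 have in common, no base differed. The annotated start of Obox2 lies 97 bases further upstream in this shared stretch, which is why its window begins with unmatched sequence. Between Obox1 and Obox5, 273 of 285 aligned columns were identical (95.8%), and between Obox5 and Obox7, 265 of 273 (97.1%). The letters TATATAA were found in the windows of Obox1, Obox5 and Obox7, 19, 31 and 5 bases before the annotated start, and on either strand in 3.24% of all 32851 RefSeq windows of this length. This motif was chosen after the sequences were seen. The Obox2 window held no match, but it ends before the position that would align with this motif. Whether Obox2 has these letters there was not examined. The letters GGATTA, bound by homeodomains of the bicoid type, and TAATTG, bound by NOBOX, were in none of the 4 windows on either strand, against 7.06% of all windows for GGATTA and 8.0% for TAATTG. The E-box letters CANNTG occurred 2 times in the windows of Obox1, Obox5 and Obox7 and 4 times in that of Obox2, and 72.3% of all windows hold at least 1. A match is a string of letters and no measure of binding.

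The 3 members were among the abundant transcripts of both groups, and all 3 had the higher mean in oocytes grown in vitro. Only Obox5 passed the call used here. The levels are the authors' group means of normalised reads. They carry no SD, because values per sample are not in the table used here, and the number of reads per sample is unknown. The call rests on the PPEE of the authors' deposited table, read as the posterior probability of equal expression. A gene was called when it was below 0.05. By this rule 1 of 3 members was called higher in vitro and 0 lower, where 6.75% of all 10896 genes were called higher, 8.31% lower and 15.1% in either direction. The member was Obox5. A required change of at least 1.5-fold also left 1 of 3, where 4.42% of all genes passed, and a PPEE below 0.01 left 0 of 3, where 4.78% of all genes were called higher. With 3 genes, of which Obox1 and Obox2 are near-copies, these counts say little about the family.

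Obox2 had 9766 mean normalised reads in vitro and 7288 in vivo. It ranked 65th of 10896 genes in vitro and 88th in vivo. Its mean was 1.34-fold higher in vitro. The authors' deposited table gives it a PPEE of 0.309, and it was not called. Obox1 had 7107 mean normalised reads in vitro and 5341 in vivo, at rank 95 in vitro and rank 144 in vivo. It was 1.33-fold higher in vitro and was not called either, at 0.113 for the PPEE in the authors' deposited table. The proportion of these near-copies was close in both groups: Obox2 stood at 137 normalised reads, not divided by length, per 100 of Obox1 in vitro and at 136 in vivo. The split of shared reads between them is uncertain, so this need not be the proportion of their RNA. Summed over both genes, which does not depend on how reads were split between them as long as shared reads were kept, the means were 16873 in vitro and 12628 in vivo, 1.34-fold higher in vitro.

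Obox5 had 4949 mean normalised reads in vitro and 3210 in vivo, and ranked 148th in vitro and 307th in vivo. Its mean was 1.54-fold higher in vitro, and its PPEE, 0.0375 in the authors' deposited table, put it among the called genes. Obox5 amounted on the same scale to 69.6 reads per 100 of Obox1 in vitro and 60.1 in vivo. Of the summed means of the 3 members, Obox5 made up 22.7% in vitro and 20.3% in vivo, Obox1 32.6% in vitro and 33.7% in vivo, and Obox2 44.8% in vitro and 46% in vivo. Whether the change of Obox5 differed from that of its relatives was not tested, as the group means hold no spread between samples.

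Obox7, in the table as Gm4745, was the least abundant of the measured Obox genes. Its mean was 833 normalised reads in vitro and 646 in vivo, at rank 1462 in vitro and rank 1943 in vivo. It was 1.29-fold higher in vitro and was not called (PPEE 0.809, from the authors' deposited table). All 4 measured Obox genes thus had the higher mean in vitro, by 1.29-fold to 1.54-fold, with Obox1 and Obox2 being near-copies. Of the 4, 1 passed the call, where 6.75% of all genes were called higher in vitro.

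**Figure D2:**
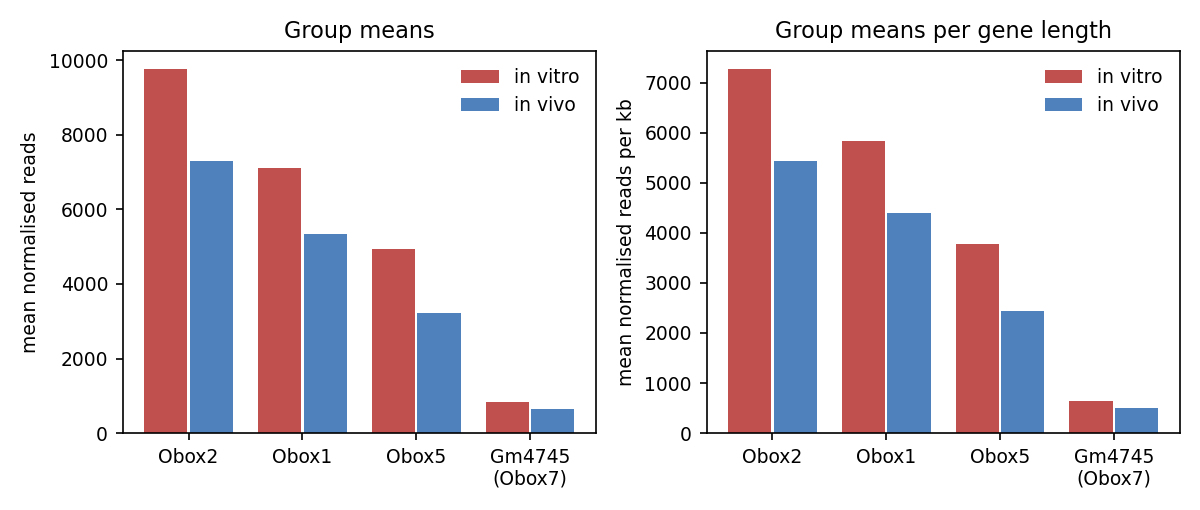
Group means of normalised reads (left) and the same per kilobase of the deposited gene length (right) for the 3 Obox members and Gm4745 (Obox7), with oocytes grown in vitro in red and oocytes grown in vivo in blue. The bars are the authors' means over 3 samples and have no error bars because the table holds no values per sample; the in vitro bar is the taller one for each gene, and the order of the genes is the same in both groups and on both scales.

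Per kilobase of the gene length in the deposited table, which allows levels of different genes to be compared, the order of the family was the same in both groups. Obox2 reached 7272 mean normalised reads per kb in vitro and 5426 in vivo, and Obox1 5840 in vitro and 4388 in vivo. Obox5 stood at 3772 mean normalised reads per kb in vitro and 2447 in vivo, and Gm4745 at 647 in vitro and 501 in vivo. On this scale Obox2 was 28th of all genes in vitro and 56th in vivo, Obox1 46th in vitro and 69th in vivo, and Obox5 80th in vitro and 122nd in vivo. Whether neighbours in this order differ beyond the spread between samples cannot be said from means alone. Together the 3 members summed to 21823 normalised reads in vitro and 15838 in vivo, 0.318% of all summed means in vitro and 0.239% in vivo. The sum was 1.38-fold higher in vitro.

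The log2 change in vitro over in vivo was 0.42 for Obox2, 0.41 for Obox1 and 0.62 for Obox5. The median over the 3 members was 0.42, against 0.02 over the 10895 genes with both means above 0. Of all genes, 23.7% had a larger change toward in vitro than Obox2, 24.1% a larger one than Obox1 and 15.1% a larger one than Obox5. Among the 1229 genes that averaged at least 1000 normalised reads over both groups, the 3 members among them, these shares were 10.0% for Obox2, 10.4% for Obox1 and 3.99% for Obox5, and the median log2 change was -0.07. Of these 1229 genes, 80 had a log2 change within the range of the 3 members, with the members included, and 41 of the 80 (51.2%) were called. Of all 10896 genes, at any level and change, 6.75% were called higher in vitro. The range was set by the members' own values. The limit of 1000 was chosen after the values were seen, and the shares are descriptions with no test.

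**Figure D3:**
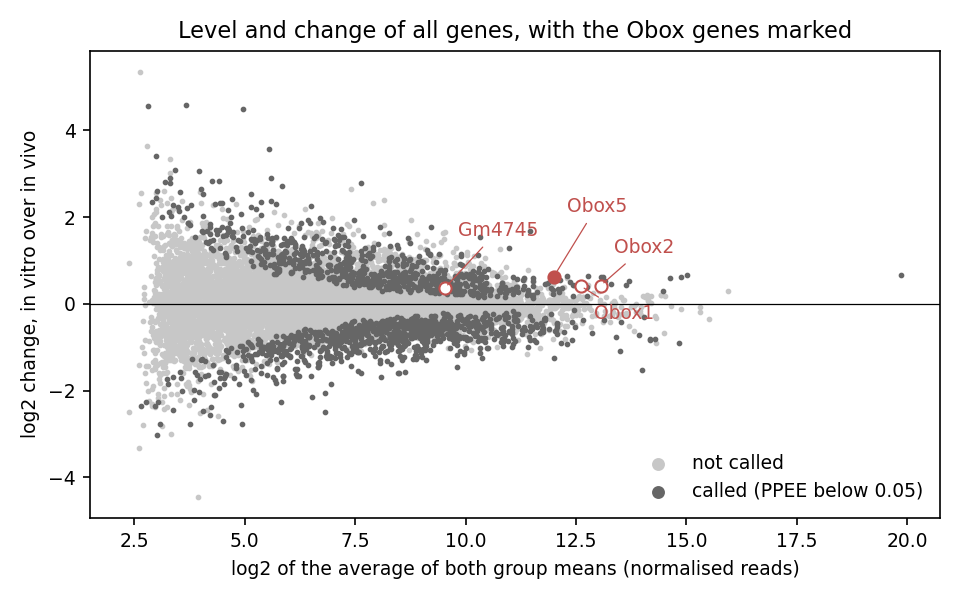
Log2 change, in vitro over in vivo, against the log2 of the average of both group means for the 10895 genes with both means above 0; dark points were called (PPEE below 0.05), and the Obox genes are in red, filled where called. Obox5 at 0.62 is the filled point, and Obox2 (0.42), Obox1 (0.41) and Gm4745 (0.37) are open.

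Genes with almost the same means as a member could have a very different PPEE. Likeness was the distance on log2 axes over both group means after adding 1 read, over 2 groups only. The 3 genes nearest to Obox1 were Tubb4b, Ccdc69 and Ccndbp1. Ccdc69 had 7231 mean normalised reads in vitro and 5452 in vivo, and in the authors' deposited table its PPEE was 6.99e-11, against 0.113 for Obox1. Tubb4b, a tubulin, had 7159 mean normalised reads in vitro and 5330 in vivo, with a PPEE of 0.0380. The nearest to Obox2 were Gm15698, Mphosph6 and Utp23, whose PPEE in the authors' deposited table was 0.976, 0.523 and 0.00153. The nearest to Obox5 were Pttg1, which encodes securin, C86187 and Mos, which encodes the kinase that holds mature eggs in arrest, with PPEE of 0.883, 0.919 and 0.313. The nearest to Gm4745 were Itm2b, Slco3a1 and Stat6. Genes with nearly equal means thus lay on both sides of the limit of 0.05, and the spread between samples behind each PPEE was not available.

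Measured genes that flank the cluster on chromosome 7 did not all have the higher mean in vitro. On one side, in the order of the RefSeq annotation, Lig1, a DNA ligase, had 129 mean normalised reads in vitro and 179 in vivo and was called lower in vitro (PPEE 0.0297, from the authors' deposited table). Pla2g4c, a phospholipase, had 8122 mean normalised reads in vitro and 9887 in vivo, and Sult2a4, a sulfotransferase, 28.7 in vitro and 17.4 in vivo; neither was called. On the other side, Selenow, a selenoprotein, had 160 mean normalised reads in vitro and 114 in vivo, and Bicra 33.6 in vitro and 16.6 in vivo, and these were not called. Nop53, a nucleolar protein, was called, with 121 mean normalised reads in vitro and 80.5 in vivo, 1.51-fold higher in vitro. The choice of 3 measured protein-coding genes on each side was made after the values were seen.

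Few of the closest relatives of Obox outside the family were found by symbol. These are homeobox genes of the Crx and Otx kind and related PRD-like genes. Of 21 listed names 3 were measured: none was called in either direction. They hold 2 distinct measurements, whose median log2 change was -0.31; over the 3 rows it was -0.04. Otx1, a factor of brain development, had 160 mean normalised reads in vitro and 239 in vivo, and its PPEE in the authors' deposited table was 0.0647. Duxbl2 and Duxbl3 were listed with the same means, 333 in vitro and 342 in vivo, so they count as 1 measurement.

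A list of other homeobox genes, taken by a pattern of symbols that does not cover every homeobox gene, had 41 measured members. Of these, 4 (9.76%) were called higher in vitro and 0 lower, against 6.75% and 8.31% of all genes, and the median log2 change was 0.05. Noto, a homeobox gene outside the pattern that was named after its value was seen, was called lower in vitro, with 537 mean normalised reads in vitro and 790 in vivo. The 4 were Evx1 (3.34-fold), Pax6 (2.77-fold), Satb1 (1.81-fold) and Adnp2 (1.54-fold higher in vitro). Evx1 and Pax6, both factors of the developing nervous system, were at low levels, with 46.8 mean normalised reads in vitro and 14.0 in vivo for Evx1, and 28.7 in vitro and 10.4 in vivo for Pax6. Satb1, an organiser of chromatin loops, had 725 mean normalised reads in vitro and 400 in vivo, and Adnp2 158 in vitro and 102 in vivo.

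Of 23 listed transcription factors of the growing oocyte, 13 were measured. None was called higher in vitro, where 6.75% of all genes were, and 1 (7.69%) was called lower, a share near the 8.31% of all genes. The median log2 change was 0.15. The called gene was Gtf2a1l, which encodes a TFIIA-like protein of germ cells, with 465 mean normalised reads in vitro and 709 in vivo. Its PPEE in the authors' deposited table was 4.87e-12. Nobox, a homeobox factor that oocytes need to grow, had the lower mean in vitro, with 8534 normalised reads in vitro and 11321 in vivo, and a PPEE of 0.915. Lhx8, another homeobox factor of the oocyte, had 1270 mean normalised reads in vitro and 955 in vivo, with a PPEE of 0.984. Sebox, a maternal homeobox gene, stood at 648 in both groups.

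Factors reported to act at or around the first transcription of the zygotic genome were called in both directions. Of 32 listed, 28 were measured, 6 of these (21.4%) were called higher in vitro and 2 (7.14%) lower, against 6.75% and 8.31% of all genes, at a median log2 change of 0.13. Gata4 was 4.16-fold higher in vitro, at a low level, with 67.1 mean normalised reads in vitro and 16.1 in vivo. Whether its reads came from the oocytes or from other cells of the follicle was not tested. Smarca5, a chromatin remodelling ATPase, was 2.35-fold higher, with 787 in vitro and 334 in vivo, and Kdm1a, a histone demethylase, 2.11-fold higher, with 80.9 in vitro and 38.3 in vivo. Zscan4f was 1.72-fold lower in vitro, with 113 mean normalised reads in vitro and 193 in vivo, and Zscan4c, the other called decrease, 1.67-fold lower; these are near-copies of each other, and the split of their reads is uncertain. Named after its value was seen, Dppa2, a chromatin factor of the early embryo, had the same 1.33-fold higher mean in vitro as Obox1, with 1049 mean normalised reads in vitro and 788 in vivo, but its PPEE in the authors' deposited table was 1.19e-05.

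**Figure D4:**
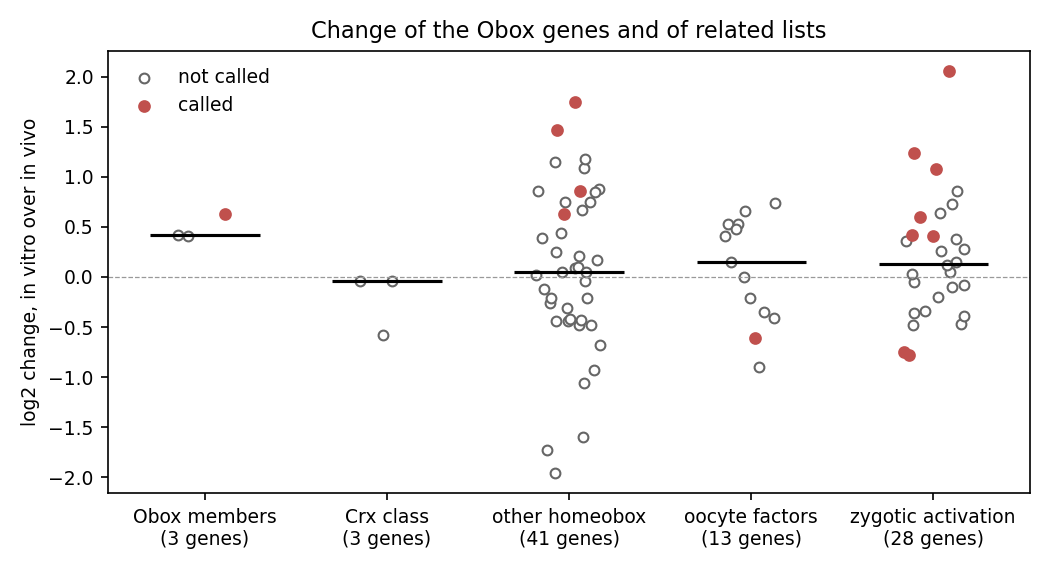
Log2 change, in vitro over in vivo, of each measured gene of the Obox family and of 4 lists of related genes; filled points were called (PPEE below 0.05), and the bar is the median of a list over its rows, where Duxbl2 and Duxbl3 of the Crx class are rows with the same values. The 3 Obox genes lie between 0.41 and 0.62, and the lists of other homeobox genes, oocyte factors and factors of zygotic genome activation spread over both sides of 0.

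The samples were checked against markers of the oocyte and of the cells around it. All 10 oocyte markers were measured, with summed means of 111202 in vitro and 160678 in vivo. Of them 2, Bmp15 and Nlrp5, were called lower in vitro while none was called higher. Of all genes, 8.31% were called lower and 6.75% higher. Oosp1 (1.80-fold), Figla (1.66-fold) and Dazl (1.06-fold) had the higher mean in vitro, and the other oocyte markers had the lower. Of 16 markers of granulosa and cumulus cells, the somatic cells of the follicle, 9 were measured, and their summed means were 478 in vitro and 294 in vivo. Of these 9, 4 were called higher in vitro and none lower, against 6.75% and 8.31% of all genes. The 4 were Inhba, Hsd3b1, Fshr and Inha, with Inha at 96.6 mean normalised reads in vitro and 28.9 in vivo. The others were not called. Among them Cyp19a1 had the higher mean in vitro (1.43-fold), while Cyp11a1, Nr5a2, Kitl and Gja1 had the lower, at 0.599-fold to 0.980-fold. Of 6 markers of theca and stroma 0 were measured, and of 4 blood and vessel markers 1, Pecam1, which was called lower in vitro, with 561 mean normalised reads in vitro and 849 in vivo. The part of these markers in the Obox values was not tested. In samples of 50 oocytes, more RNA per oocyte and more of the oocytes holding it cannot be told apart.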

How the data were processed

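RNA of 3 samples of oocytes grown in vitro and 3 grown in vivo was sequenced. BWA and the genome build mm9 are named, per the submitters' processing notes; the tool for counting, the read length and the scale factors are not given in the sources used here. The authors deposited 1 table of 10896 genes that holds, for each gene, 2 signal values (the group means of normalised reads, not divided by length), a PPEE, a length in bases and a log2 ratio whose sign runs the other way (in vivo on top). In that deposited table the PPEE is taken by the usual meaning of the abbreviation and is not a p-value.

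Folds were computed from both means, in vitro over in vivo, with no pseudocount. Calls and list counts used a PPEE below 0.05, and lists were described by counts and medians without a test. List genes and markers were looked up by symbol only, so a gene present under an older name counts as not measured. The fit per sample that had been planned, limma voom on whole reads solved from means up to 200, was not made, since the means of all 4 Obox genes lie above 200 in both groups. Members, lists and alternatives were chosen with earlier results of these data known. All measured members were named, of each list up to 4 called genes with the largest change, and for each member the 3 genes nearest in both means; list genes named beyond that, such as those not called, were chosen after their values were seen. The pattern for other homeobox genes took 73 symbols, of which 32 were left out because they are not homeobox genes or stand in another list. Gene identifiers were matched to RefSeq (GRCm38.p6), where 4 of 6 protein-coding Obox genes and 0 of 47 pseudogenes had a row. Sequences were compared by local alignment and by shared words, using python 3.11.15, pandas 2.3.3 and biopython 1.88, after the counting and word steps had been tested on simulated data.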

Additional observations from a re-analysis of the deposited data

How the results depend on the processing

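The calls are the deposited PPEE, which no scaling recomputes, and the members' means lie far above 10. The count of 1 Obox member called higher in vitro could therefore hardly move with a pseudocount of 1, a minimum mean of 10, centring on the median of all genes or dividing by the summed means of each group (the last added after seeing the data), and its value of 1 there says nothing about stability. With a required change of 1.5-fold on the deposited scale it was 1. Divided by the summed means, the log2 change of Obox5, 0.57, fell short of 1.5-fold. At a PPEE below 0.01 the count was 0, since the PPEE of Obox5 is 0.0375. Of all genes, 4.78% were called higher in vitro at that limit. At that limit the count of other homeobox genes called higher in vitro was 1, against 4 at 0.05, also an alternative added after seeing the data. Under the pseudocount, centring and summed means the log2 change ranged from 0.57 to 0.62 for Obox5, from 0.36 to 0.41 for Obox1 and from 0.37 to 0.42 for Obox2, and kept its sign. Limma voom, the limma trend fit, TMM scaling, the filter on reads and leaving out each library were not run, because the table gives no values per sample at the level of the Obox genes. No paired analysis was possible because the columns are group means and carry no replicate numbers. Depth per sample is unknown, so no counting interval can be given.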

Other observations

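Cphx1 and Cphx2, related homeobox genes outside the lists, are named after their values were seen. Cphx2, a homeobox gene of the oocyte and early embryo, had 292 mean normalised reads in vitro and 46.9 in vivo, 6.23-fold higher in vitro, and its PPEE in the authors' deposited table was 0.459, so it was not called. Its relative Cphx1 had 894 mean normalised reads in vitro and 1122 in vivo, with a PPEE of 0.760.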
